A study of Rattus norvegicus with 6 samples.

Results

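miR-221 and miR-222 are small noncoding RNAs made from neighbouring hairpins on chromosome X. Their 4 mature arms, rno-miR-221-3p, rno-miR-221-5p, rno-miR-222-3p and rno-miR-222-5p, were taken by name from a count table of 749 miRNAs in rat MSC exosomes, and all 4 were present. MSCsTXL-exo are exosomes of mesenchymal stem cells (MSCs) pretreated with 400 μg/mL Tongxinluo (TXL), a Chinese medicine compound, for 24 h. MSCs-exo are exosomes of MSCs that were not pretreated. In both groups the MSCs were grown from bone marrow of male Sprague-Dawley rats and used at low passage, and the exosomes were pelleted by ultracentrifugation from medium made with exosome-free serum. Each group had 3 libraries, named here by the numbers 10, 12 and 13 that the count table gives in both groups. The study does not say whether these came from separate cultures, so the tests speak only to the variation among these 6 samples, which may be technical. The comparison asks whether TXL pretreatment of the cells changes the miRNA load of their exosomes.

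A hairpin is cut into a duplex of a 5p and a 3p arm, of which the arm kept in the Argonaute complex silences mRNAs that pair with its seed, bases 2 to 8. The 3p arms of miR-221 and miR-222 are known as the active guides. They repress the cell cycle inhibitor p27Kip1 (Cdkn1b) and the receptor tyrosine kinase KIT, and are known for promoting growth of vascular smooth muscle cells and for dampening angiogenic responses of endothelial cells. The study names miR-221 among the miRNAs of inflammation modulation.

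The mature sequences are shown because the 2 guides share a seed, and the seed is in capitals. They come from RefSeq (build GRCr8), which held all 4 arms.

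rno-miR-221-3p: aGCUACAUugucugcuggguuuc

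rno-miR-222-3p: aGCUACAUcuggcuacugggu

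rno-miR-221-5p: aCCUGGCAuacaauguagauuuc

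rno-miR-222-5p: gGCUCAGUagccaguguagau

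miR-221-3p and miR-222-3p were identical in their first 8 bases and then diverged, matching at 11 of 21 positions when laid side by side without gaps. They also shared the run cugggu near the 3′ end. Of 693 mature rat miRNA names in the RefSeq table, only these 2 carried the seed GCUACAU. The 5p arms had seeds of their own, found in no other name of that table, and matched at 5 of 21 positions. With so many mismatches, the arms are not near-identical copies.

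The hairpins are shown with both arms in capitals, since the results below compare arms of a hairpin and hairpins of the cluster.

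Mir221: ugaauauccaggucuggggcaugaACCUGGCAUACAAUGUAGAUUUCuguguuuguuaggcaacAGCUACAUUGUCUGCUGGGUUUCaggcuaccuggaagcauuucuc

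Mir222: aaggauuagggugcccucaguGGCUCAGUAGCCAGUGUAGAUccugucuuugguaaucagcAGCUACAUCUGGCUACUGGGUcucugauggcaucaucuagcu

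In GRCr8, Mir222 lies at chrX:6022621-6022723 and Mir221 at chrX:6023182-6023290, both on the plus strand, with 458 bases between them. Both overlap the annotated long noncoding RNA genes LOC120099382 and LOC120099384. The nearest protein-coding genes on either side were Chst7, at a distance of 1036249 bases, and LOC100359876, at 611721 bases. The count table places the start of miR-221-3p 564 bases after that of miR-222-3p, as GRCr8 does, but at 3684544 on chromosome X of a build it does not name.

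The MSCsTXL-exo libraries held 382665 to 1792805 UMIs (molecules counted once by their unique molecular identifier) and the MSCs-exo libraries 453812 to 1000585. Levels are given as CPM, the UMI count relative to the library total after scaling with TMM factors (trimmed mean of M values). Depending on the library, 3 UMIs, the limit that a count of 0 allows, equal 1.95 to 7.50 CPM. Intervals on counts cover counting error only. All 10 listed mesenchymal markers were counted in every library, and summed to 352960 to 407673 CPM in MSCsTXL-exo and 317714 to 408077 CPM in MSCs-exo. The 4 blood and immune markers summed to 205 to 306 CPM in MSCsTXL-exo and 316 to 423 CPM in MSCs-exo. Of the 3 that entered the tests below, miR-223-3p and miR-142-3p were lower in all MSCsTXL-exo libraries, and miR-150-5p overlapped. Of all 392 tested miRNAs, 29 (7.4%) had groups apart in either direction. Over the 6 libraries the endothelial markers summed to 809 to 1406 CPM and the neuronal ones to 1429 to 1847 CPM. Nearly all of the neuronal sum was miR-128-3p, with means of 1621 CPM in MSCsTXL-exo and 1588 CPM in MSCs-exo. Each other neuronal marker averaged at most 23.0 CPM in a group. The muscle markers summed to 145 to 844 CPM, the liver ones to 333 to 557 CPM and the epithelial ones to 50.6 to 99.9 CPM. The first principal component held 54.0% of the variance and did not separate the groups. On it MSCs-exo libraries 10, 12 and 13 stood at 15.27, 3.66 and -10.49, and those of MSCsTXL-exo at 2.42, 4.46 and -15.33. Library 13, the deepest of each group, thus stood lowest in both, and the cause was not tested. On the second principal component, which held 18.9% of the variance, MSCsTXL-exo library 12 stood at -13.03 and the other 5 libraries at 0.16 to 4.83.

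miR-221-3p was the most abundant of the 4 arms by far. It had 4835, 3008 and 3936 CPM in MSCsTXL-exo libraries 10, 12 and 13, against 3422, 3583 and 3833 CPM in the MSCs-exo libraries. These levels rest on 1935, 2424 and 6066 UMIs in MSCsTXL-exo and on 1770, 2543 and 3541 UMIs in MSCs-exo. By mean CPM over the 6 libraries miR-221-3p ranked 31 of 749 miRNAs, and it held 0.305% to 0.506% of the UMIs of a MSCsTXL-exo library and 0.354% to 0.390% of those of a MSCs-exo library.

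miR-222-3p, its partner with the same seed, stood about an order of magnitude lower. It had 400 (library 10), 231 (12) and 314 CPM (13) in MSCsTXL-exo and 307, 307 and 324 CPM in MSCs-exo, and ranked 115 of 749. The counts were 160, 186 and 484 UMIs in MSCsTXL-exo and 159, 218 and 299 UMIs in MSCs-exo. Both guides were highest in MSCsTXL-exo library 10 and lowest in MSCsTXL-exo library 12, with all MSCs-exo libraries in between.

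The 5p arms were scarce. miR-221-5p had 17.5 (10), 17.4 (12) and 26.0 CPM (13) in MSCsTXL-exo, from 7, 14 and 40 UMIs, against 34.8, 18.3 and 31.4 CPM in MSCs-exo, from 18, 13 and 29 UMIs. miR-222-5p had 7.50 (10), 12.4 (12) and 9.08 CPM (13) in MSCsTXL-exo, from 3, 10 and 14 UMIs, against 27.1, 12.7 and 7.58 CPM in MSCs-exo, from 14, 9 and 7 UMIs. They ranked 315 and 413 of 749. miR-221-5p lay above miR-222-5p in each of the 6 libraries, but their ranges over the libraries overlapped, whereas those of the 3p arms overlapped with no other arm.

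**Figure D1:**
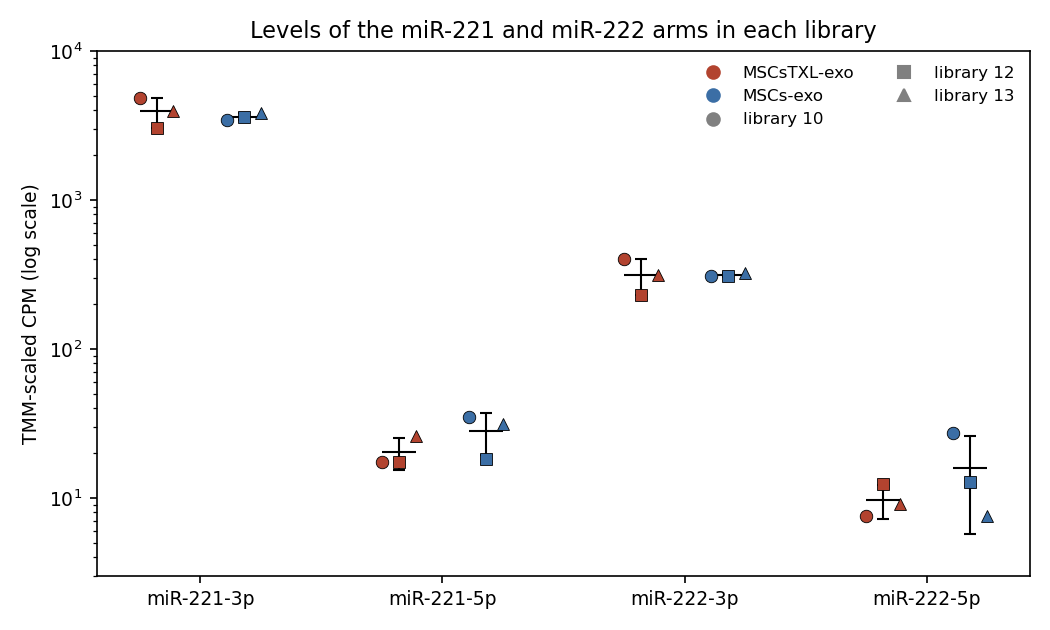
TMM-scaled CPM (log scale) of the 4 arms, with each library as a point (MSCsTXL-exo left, MSCs-exo right, shape by library number) and the mean ± SD of 3 libraries as a bar. The 3p arms sit at 3008 to 4835 CPM (miR-221-3p) and 231 to 400 CPM (miR-222-3p), and the 5p arms at 7.50 to 34.8 CPM, with the groups overlapping for every arm.

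The balance between the arms of each hairpin was tilted to the 3p side in every library. Of all UMIs of the miR-221 hairpin, the 5p arm held 0.582% in MSCsTXL-exo (95% Wilson interval 0.453% to 0.746%, 61 of 10486 UMIs) and 0.758% in MSCs-exo (0.589% to 0.975%, 60 of 7914 UMIs). Of the miR-222 hairpin it held 3.15% in MSCsTXL-exo (2.17% to 4.55%, 27 of 857 UMIs) and 4.25% in MSCs-exo (2.99% to 6.001%, 30 of 706 UMIs). The intervals of the groups overlapped for both hairpins. Over all libraries together, the 5p share was 0.658% for miR-221 (0.551% to 0.785%) and 3.65% for miR-222 (2.83% to 4.70%). These pooled intervals did not overlap, but they leave out the spread between libraries. The 5p share was higher for miR-222 in every library. It ran from 1.84% (MSCsTXL-exo library 10) to 8.09% (MSCs-exo library 10), beside 0.360% and 1.01% for miR-221 in the same libraries. In MSCsTXL-exo library 10 and MSCs-exo library 13 the intervals of the 2 hairpins overlapped.

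Set against other hairpins, this tilt was not extreme. Among 238 pairs of arms of a hairpin with at least 100 UMIs in all, the 3p arm was the major one in 97. The minor arm held a median of 6.52%. An arm made from several hairpins entered with its full count in each, which lowers the minor share there. For example, let-7a-5p entered with 189062 UMIs beside both let-7a-1-3p and let-7a-2-3p. The minor share was lower than that of miR-221 in 51 pairs and lower than that of miR-222 in 92, such pairs included.

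The arm ratio did not differ between the groups beyond the spread of the libraries. There were 276 (library 10), 173 (12) and 152 (13) UMIs of miR-221-3p for each UMI of miR-221-5p in MSCsTXL-exo, against 98.3, 196 and 122 in MSCs-exo. The mean log2 ratio was 7.54 ± 0.41 in MSCsTXL-exo and 7.02 ± 0.50 in MSCs-exo (SD, n = 3 each; difference 0.53, exact two-sided permutation test, p = 0.3). Leaving out 1 library moved the difference to 0.29 (MSCsTXL-exo library 10), 0.31 (MSCs-exo library 10) or 0.80 (MSCs-exo library 12), and it was 0.60 without MSCsTXL-exo library 12. For miR-222 the ratio of 3p to 5p was 53.3 (10), 18.6 (12) and 34.6 (13) in MSCsTXL-exo, against 11.4, 24.2 and 42.7 in MSCs-exo. Its mean log2 ratio was 4.91 ± 0.70 in MSCsTXL-exo and 4.43 ± 0.93 in MSCs-exo (SD, n = 3 each; difference 0.48, exact two-sided permutation test, p = 0.6). The difference was -0.011 without MSCs-exo library 10. Leaving out MSCsTXL-exo library 10 gave 0.17, MSCs-exo library 13 gave 0.92 and MSCsTXL-exo library 12 gave 0.86. With 3 libraries against 3 this exact permutation test cannot go under p = 0.1.

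The balance between the 2 guides, by contrast, was steady. The libraries held 12.1 (10), 13.03 (12) and 12.5 (13) UMIs of miR-221-3p for each UMI of miR-222-3p in MSCsTXL-exo, against 11.1, 11.7 and 11.8 in MSCs-exo. Every MSCsTXL-exo library thus lay above every MSCs-exo library, by a small margin. The mean log2 ratio was 3.65 ± 0.05 in MSCsTXL-exo and 3.53 ± 0.05 in MSCs-exo (SD, n = 3 each; difference 0.12, exact two-sided permutation test, p = 0.1, the smallest it can give here). With the libraries paired by number, an exact sign-flip test gave p = 0.25, the smallest that 3 pairs allow. The difference was 0.09 without MSCsTXL-exo library 12. The same difference is not resolved by counting. miR-222-3p held 7.64% (95% Wilson interval 6.58% to 8.85%), 7.13% (6.20% to 8.18%) and 7.39% (6.78% to 8.05%) of the UMIs of both guides in MSCsTXL-exo libraries 10, 12 and 13. In the MSCs-exo libraries it held 8.24% (7.10% to 9.55%), 7.90% (6.95% to 8.96%) and 7.79% (6.98% to 8.68%), so that all 6 intervals overlapped. Over the 6 libraries the log2 ratio had an SD of 0.08, where counting error alone gives 0.10. The log2 arm ratios had SDs of 0.50 (miR-221) and 0.78 (miR-222), where counting error alone gives 0.38 and 0.55. Much of their wider spread is thus within the error of low 5p counts.

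**Figure D2:**
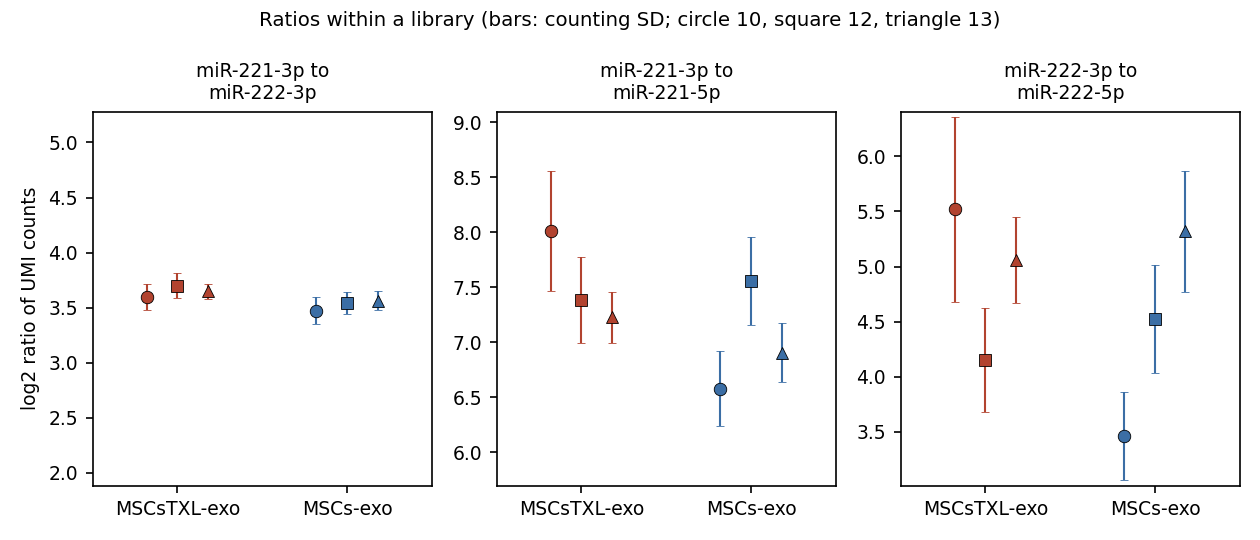
log2 ratio of UMI counts within each library for the 2 guides (left) and for the 3p to the 5p arm of each hairpin (middle and right), with bars of 1 counting SD and axes of equal height. The ratio of the guides stays at 11.1 to 13.03 in all libraries, while the arm ratios range from 98.3 to 276 (miR-221) and from 11.4 to 53.3 (miR-222).

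The SD of this ratio was set against that of other miRNAs. Among 391 other tested miRNAs, miR-222-3p had the smallest SD of the log2 ratio to miR-221-3p over the 6 libraries (0.08). It was followed by miR-1839-5p (0.12), miR-324-3p (0.13), miR-128-3p (0.14) and miR-145-5p (0.16), and the median over all 391 was 0.64. The reverse search, from miR-222-3p, ranked miR-221-3p first as well. This measure needs no scaling between libraries. An SD below counting error was not particular to miR-222-3p, since 16 of the 391 had one, among them miR-1839-5p (counting error 0.17) and miR-324-3p (0.21).

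By the level itself, miR-222-3p was also the miRNA most like miR-221-3p, with Pearson's r = 0.95 of log2 CPM over the 6 libraries. After it came miR-324-3p (0.86), miR-1839-5p (0.85), miR-365-3p (0.83) and miR-128-3p (0.79). For miR-222-3p the next most alike were miR-183-5p (0.80), miR-324-3p (0.79), miR-219a-1-3p (0.78) and miR-541-3p (0.77). These values are descriptions over 6 libraries that share their scaling factors, and each library enters both members of a pair.

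**Figure D3:**
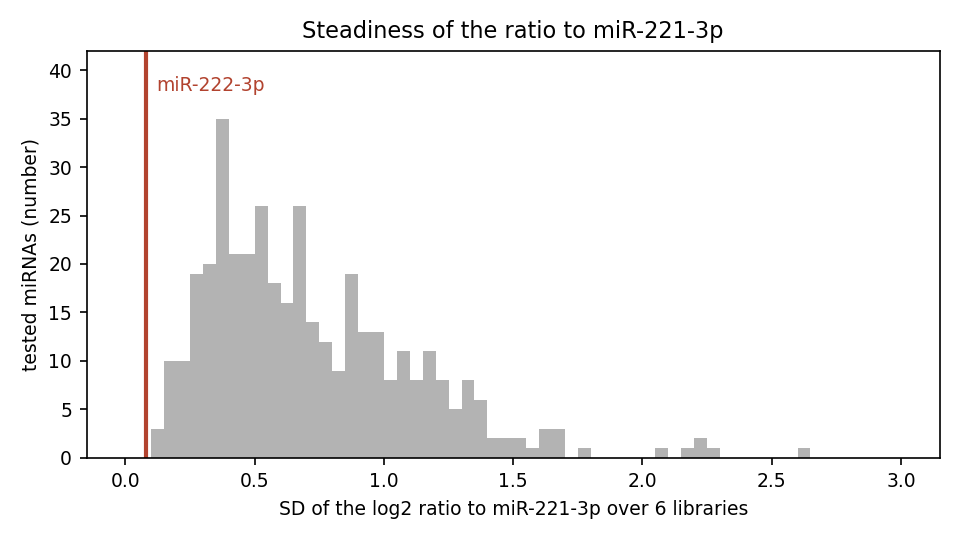
Histogram of the SD over 6 libraries of the log2 ratio of each of 391 tested miRNAs to miR-221-3p, with miR-222-3p as a line at 0.08. The line lies left of all other miRNAs, whose smallest value is 0.12.

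Neither guide differed between MSCsTXL-exo and MSCs-exo by more than the spread of the libraries. miR-221-3p averaged 3926 ± 914 CPM in MSCsTXL-exo and 3613 ± 207 CPM in MSCs-exo (SD, n = 3 each), a log2 fold change of 0.12 with a standard error of 0.26. Its Benjamini-Hochberg adjusted p was 0.993 in edgeR's quasi-likelihood test over 392 miRNAs, those left after low counts were filtered out. The 95% interval of the log2 fold change ran from -0.47 to 0.71, and thus held no 2-fold change in either direction. Without MSCsTXL-exo library 10 the log2 fold change was -0.045, and without MSCsTXL-exo library 12 it was 0.26.

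miR-222-3p averaged 315 ± 84.5 CPM in MSCsTXL-exo and 313 ± 9.47 CPM in MSCs-exo (SD, n = 3 each), a log2 fold change of 0.01 with a standard error of 0.34 and a 95% interval from -0.78 to 0.80. Its adjusted p from edgeR was 0.993. Its sign turned with the setting, from -0.19 without MSCsTXL-exo library 10 to 0.17 without MSCsTXL-exo library 12. Exact two-sided permutation tests of log2 CPM gave p = 0.7 for miR-221-3p and p = 0.9 for miR-222-3p.

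Within library numbers the guides went different ways together. The ratio of MSCsTXL-exo to MSCs-exo in miR-221-3p was 1.41 in the pair numbered 10, 0.840 in pair 12 and 1.03 in pair 13. In miR-222-3p it was 1.30 in pair 10, 0.751 in pair 12 and 0.970 in pair 13. Both guides were thus higher in MSCsTXL-exo in pair 10 and lower in pair 12, and close to 1 in pair 13. The level of both guides together, as molecules with the same seed, was 4241 ± 998 CPM in MSCsTXL-exo and 3925 ± 216 CPM in MSCs-exo (SD, n = 3 each).

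The spread of the guides between libraries was small for this data set. Over the 6 libraries the SD of log2 CPM was 0.23 for miR-221-3p and 0.25 for miR-222-3p, where the 182 tested miRNAs of at least 100 CPM had a median of 0.46. From the lowest SD up, the guides ranked 22 and 34 among those 182. The coefficient of variation within MSCs-exo was 5.74% for miR-221-3p and 3.03% for miR-222-3p, and within MSCsTXL-exo it was 23.3% and 26.8%. Counting error alone gives 1.97% for miR-221-3p and 6.82% for miR-222-3p over the 6 libraries. The 3.03% of miR-222-3p thus lies below counting error and does not show a tightly held level. Whether the spread differs between the groups was not tested.

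Both 5p arms had a lower mean in MSCsTXL-exo, within the spread of the libraries. miR-221-5p averaged 20.3 ± 4.92 CPM in MSCsTXL-exo and 28.2 ± 8.70 CPM in MSCs-exo (SD, n = 3 each), a log2 fold change of -0.44 with a standard error of 0.43 and an adjusted p = 0.993 from edgeR. Its 95% interval from -1.43 to 0.55 includes a 2-fold fall, so a change of that size was not excluded. Without MSCsTXL-exo library 12 its log2 fold change was -0.35, and it was -0.74 without MSCsTXL-exo library 13 and -0.68 without MSCs-exo library 12. Within library numbers the ratio of MSCsTXL-exo to MSCs-exo was below 1 in all 3 pairs, at 0.503 (10), 0.948 (12) and 0.827 (13), and the log2 fold change with the replicate block was -0.41 (adjusted p = 0.779 from edgeR). miR-222-5p averaged 9.66 ± 2.51 CPM in MSCsTXL-exo and 15.8 ± 10.1 CPM in MSCs-exo (SD, n = 3 each). It did not pass the filter on low counts, and its log2 CPM differed by -0.50 (exact two-sided permutation test, p = 0.6). Without MSCs-exo library 10, which had 14 of the 30 MSCs-exo UMIs, the difference was -0.03, and it was -0.68 without MSCsTXL-exo library 12 and -0.92 without MSCs-exo library 13. Its ratio of MSCsTXL-exo to MSCs-exo was 0.277 in pair 10, 0.979 in pair 12 and 1.199 in pair 13.

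Of the 4 arms, 3 were tested by edgeR, and 0 of these passed an adjusted p, an unadjusted p under 0.05 or a 2-fold change, with DESeq2 and limma-voom giving 0 as well. Over all 392 tested miRNAs, 14 (3.57%) were past 2-fold at p under 0.05 before adjustment, and 0 passed the adjusted p (0%). When library numbers entered edgeR as a replicate block the count was 29 (7.4%), and again 0 of the 3 arms was among them, at blocked log2 fold changes of 0.09 (miR-221-3p), -0.027 (miR-222-3p) and -0.41 (miR-221-5p). All 3 libraries of a group lay above those of the other for 29 of the 392 (7.4%) and for 0 of the 3 arms.

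**Figure D4:**
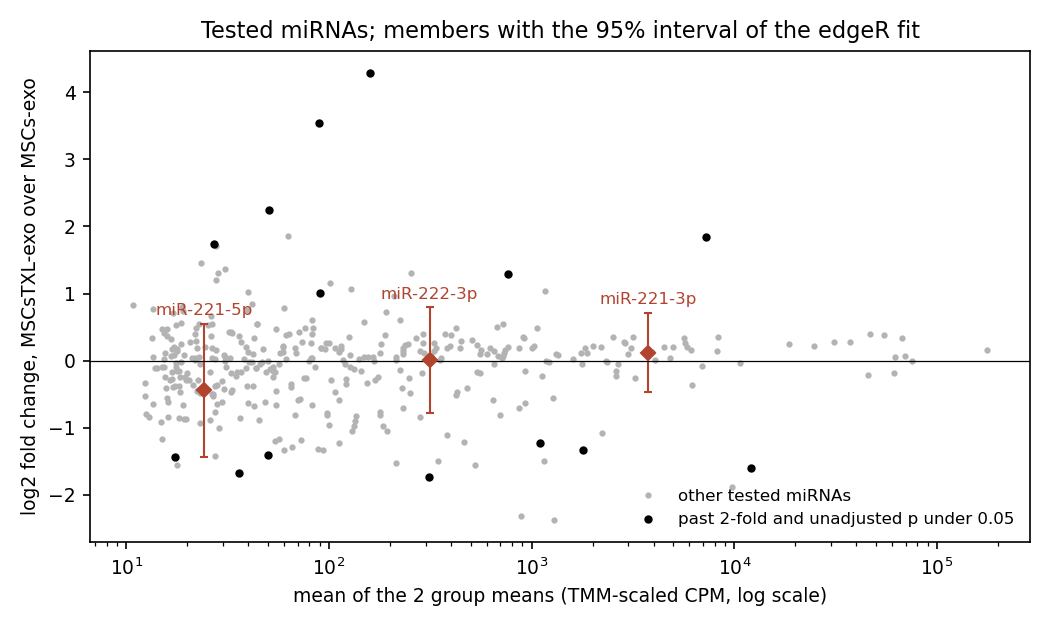
log2 fold change (MSCsTXL-exo over MSCs-exo) against mean level (TMM-scaled CPM, log scale) of the 392 tested miRNAs, with the 3 tested arms in red and their 95% intervals. miR-221-3p (0.12) and miR-222-3p (0.01) lie near 0 and miR-221-5p lies at -0.44, and all 3 intervals cross 0.

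miRNAs that act on the same cells were read from lists. Of 11 other miRNAs known from vascular smooth muscle, 8 were tested. Their log2 fold changes were above 0 in 4 and below 0 in 4, with a median of -0.01, beside 0.03 over all 392. Leaving out MSCsTXL-exo library 13 gave a median of -0.13, leaving out MSCs-exo library 10 gave -0.16, and leaving out MSCs-exo library 12 gave 0.17. miR-143-3p, which keeps smooth muscle cells contractile, had 57108 ± 13991 CPM in MSCsTXL-exo and 65274 ± 4803 CPM in MSCs-exo (SD, n = 3 each; log2 fold change -0.19). Its cluster partner miR-145-5p had a log2 fold change of -0.05. Only miR-146a-5p of this list was past both thresholds (a 2-fold change and p under 0.05 before adjustment). It averaged 11333 ± 7744 CPM in MSCsTXL-exo and 3156 ± 2546 CPM in MSCs-exo (SD, n = 3 each; log2 fold change 1.84), and its groups overlapped. This list had 0 past both thresholds without MSCsTXL-exo library 10 or 13, without MSCs-exo library 10 or 12, and with at least 10 counts in every library.

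Among 11 growth-promoting miRNAs of the miR-17-92 and miR-106b-25 clusters, with miR-21-5p and miR-155-5p, all were tested and 0 passed the thresholds. The log2 fold change was above 0 in 8 of them (median 0.06), beside 52.55% of all 392. It was above 0 in 5 with library totals in place of TMM, in 4 without MSCs-exo library 10 and in 0 without MSCsTXL-exo library 13. The most abundant, miR-21-5p, had 42449 ± 6451 CPM in MSCsTXL-exo and 49164 ± 6537 CPM in MSCs-exo (SD, n = 3 each; log2 fold change -0.21). Among 14 tested growth-restraining miRNAs of the let-7, miR-15/16 and miR-34 families and miR-26a-5p, 0 passed the thresholds. The log2 fold change was above 0 in 13 (median 0.27), beside 52.55% of all 392. It was above 0 in 11 with library totals, in 9 without MSCs-exo library 10 and in 8 without MSCsTXL-exo library 13. Many of the 14 are members of the let-7 family, so their values are not independent. For 5 of the 14, let-7a-5p, let-7b-5p, let-7c-5p, let-7e-5p and miR-34a-5p, every MSCsTXL-exo library lay above every MSCs-exo library, as for 16 of all 392 tested miRNAs (4.08%). The most abundant of the 14, miR-16-5p, had 70936 ± 31721 CPM in MSCsTXL-exo and 67889 ± 26631 CPM in MSCs-exo (SD, n = 3 each; log2 fold change 0.06). let-7c-5p, the next, had 74611 ± 1924 CPM in MSCsTXL-exo and 59328 ± 8719 CPM in MSCs-exo (SD, n = 3 each; log2 fold change 0.33). miR-34a-5p, induced by p53, had 3123 ± 414 CPM in MSCsTXL-exo and 2574 ± 38.3 CPM in MSCs-exo (SD, n = 3 each; log2 fold change 0.28, unadjusted p = 0.264 from edgeR).

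Of 17 arms of the miRNAs that the study names for inflammation, a list that holds both arms of miR-221, 13 were tested. Of these, 5 had log2 fold changes above 0 and 8 below (median -0.16), and 1 passed the thresholds, again miR-146a-5p. The call was lost in the same settings as above, and the median ran from -0.34 without MSCsTXL-exo library 13 to -0.04 without MSCs-exo library 10. By abundance miR-221-3p stood below miR-24-3p of this list, which had 5319 ± 764 CPM in MSCsTXL-exo and 4630 ± 1027 CPM in MSCs-exo (SD, n = 3 each). It stood above miR-126a-3p, which had 876 ± 244 CPM in MSCsTXL-exo and 979 ± 207 CPM in MSCs-exo (SD, n = 3 each).

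Chromosome X carries a locus of 113 miRNAs of the table, among them the 4 arms. Some, such as let-7f-5p, are also made from a hairpin elsewhere, and their counts cannot be assigned to a locus. Of the 113 miRNAs, 48 were tested. Of these, 23 had log2 fold changes above 0 and 25 below (median -0.11, beside 0.03 over all tested miRNAs). Only miR-3585-3p passed the thresholds, with 303 ± 485 CPM in MSCsTXL-exo and 15.7 ± 8.13 CPM in MSCs-exo (SD, n = 3 each; log2 fold change 4.29). Its groups overlapped, and MSCsTXL-exo library 12 held 695 of its 787 UMIs. The list had 0 past the thresholds in this direction without MSCsTXL-exo library 12 or MSCs-exo library 12, with limma-voom, with the replicate block and with at least 10 counts in every library. In the other direction it had 0 in the main edgeR fit. It had 1 to 3 with DESeq2, with no filter, with the replicate block, or without MSCs-exo library 12 or 13 or MSCsTXL-exo library 13. The median was -0.31 without MSCsTXL-exo library 12 and -0.20 without MSCsTXL-exo library 13.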

How the data were processed

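Exosomal small RNA of 3 MSCsTXL-exo and 3 MSCs-exo samples was sequenced from QIAseq miRNA libraries with UMIs. The authors' processing notes name cutadapt 2.7 and Bowtie 1.2.2, and the genome build and filters are not given in the sources used here. The deposited table holds raw UMI counts per mature miRNA in 833 lines for 749 miRNAs. The 69 miRNAs listed at more than 1 locus, with equal counts, entered once. Its 6 CPM columns were not used. Groups were read from the letters M and T of the column names, whose numbers match no sample title.

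The test was edgeR's quasi-likelihood test (edgeR 4.0.16, R 4.3.3) without a block, with TMM factors and filterByExpr by group (minimum count 10, minimum total 15), which kept 392 miRNAs. Adjusted p-values are Benjamini-Hochberg over these 392, and intervals are the log2 fold change with its standard error and the t quantile of the fit. The study's thresholds were a fold change over 2 and p under 0.05. Its statistics section gives a general test for pairs of groups and none specific to sequencing counts. Ratios within a library used counts with 0.5 added for the log2 values, and none for the printed ratios.

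Over the tested miRNAs, after subtraction of each group's mean, same-numbered libraries had a correlation of 0.442 (10), 0.163 (12) and 0.693 (13), although for MSCsTXL-exo library 12 the value with number 10 of MSCs-exo was higher (0.349). No label says that equal numbers mark a pair. The main fit therefore has no block, and the fit with the number as a replicate block was an alternative. Others were DESeq2 1.42.0, limma-voom (limma 3.58.1), a minimum of 10 counts per library, no filter, RLE, upper quartile or no scaling factors, 5 counts added to ratios, and each library left out.

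The named miRNAs are the 4 arms, the 5 most correlated with each guide, and list members with an unadjusted p under 0.05 or among the most abundant. let-7a-5p, let-7b-5p, let-7e-5p, miR-34a-5p, miR-145-5p and miR-126a-3p were named after their values were seen, as were the miRNAs with the steadiest ratios. The arms and lists were chosen with earlier results of these data known.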

Additional observations from a re-analysis of the deposited data

How the results depend on the processing

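No arm passed a threshold under any alternative that could be fitted. miR-221-5p and miR-222-5p were negative and the ratio of the guides was higher in MSCsTXL-exo under all alternatives run. Leaving out 1 library moved the log2 fold change of miR-221-3p to between -0.045 (without MSCsTXL-exo library 10) and 0.26, that of miR-222-3p to between -0.19 and 0.17, the difference in the miR-221 arm ratio to between 0.29 and 0.80, and the difference in the miR-222 arm ratio to between -0.011 (without MSCs-exo library 10) and 0.92. The log2 fold change of miR-222-3p was 0.01 in the main fit. It was -0.038 with limma-voom, -0.068 with library totals, -0.0033 with no filter, -0.070 with at least 10 counts in every library and -0.027 with the replicate block. The cause was not tested, and each of these is far inside its standard error.

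The count of miRNAs past 2-fold and p under 0.05 before adjustment was 14 in the main fit of this re-analysis. It was 24 with DESeq2, 9 with limma-voom, 34 with no filter, 6 with at least 10 counts in every library and 29 with the replicate block. Leaving out 1 library gave 6 to 38 (6 without MSCs-exo library 10 or 12, 38 without MSCs-exo library 13, 25 without MSCsTXL-exo library 13). At an adjusted p under 0.05 the replicate block gave 1 miRNA in place of 0. The block changed no call of an arm. miR-221-5p could not be fitted with at least 10 counts in every library, nor miR-222-5p with DESeq2, limma-voom, the edgeR block or that filter. Its 57 UMIs over 6 libraries limit what can be said of it.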

Other observations

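Other pairs of neighbouring miRNAs were compared with the guides, a description chosen after the steady ratio of the guides was seen. In the table, 44 pairs of tested miRNAs with at least 100 CPM and a single locus come from different hairpins of the same strand with starts within 10000 bases. The pair miR-221-3p and miR-222-3p, 564 bases apart, had the smallest SD of the log2 ratio over the 6 libraries (0.08). Next came miR-191a-5p with miR-425-5p on chromosome 8 (0.12), miR-25-3p with miR-93-5p on chromosome 12 (0.15) and miR-296-3p with miR-298-5p on chromosome 3 (0.18). The median of the 44 pairs was 0.59. Minor arms of a hairpin are among these pairs, and many pairs lie on chromosome 6. The SD was 1.38 for miR-296-5p with miR-298-5p, far above that of miR-296-3p. It was 0.32 for miR-145-3p with miR-143-3p, against 0.41 for miR-145-5p with miR-143-3p.

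Of the 44 pairs, 19 lie no further apart than the guides, with a median SD of 0.34 and a highest of 1.55. On chromosome 19, miR-23a-3p and miR-27a-3p, whose starts lie 164 bases apart, had an SD of 0.34. The largest SD of the 44, 2.02, was that of miR-379-3p and miR-543-5p on chromosome 6, which lie 8922 bases apart (counting error 0.26). Several of these pairs share a miRNA, so the 44 values are not independent.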
